A study of Mus musculus with 24 samples.

Results

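The solute carriers (Slc genes) encode membrane proteins that move sugars, amino acids, nucleosides, metal ions, inorganic ions, vitamins and metabolites across the plasma membrane and across the membranes of mitochondria, lysosomes, the Golgi apparatus and vesicles. Members of a numbered family share sequence, and most families share a kind of substrate, so that the family number tells roughly what is carried. In lung, carriers of ions, urea, zinc and vitamin C serve the epithelium, the capillaries and the fluid that lines the airspaces. In skin, glucose, lactate, amino acid and creatine carriers feed epidermis, hair follicles and the muscle and fat beneath them.

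The genes described here were all those whose only symbol in the platform annotation began with Slc and a digit. There were 132 such genes, measured by 137 probes, among the 8750 features of the array. Of the 132, Slc4a1ap and Slc9a3r1 encode adaptor proteins named for the carriers they bind and are not carriers themselves. A further 8 probes listed several symbols that included an Slc gene and were left out.

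Skin and lung were taken from female C3H/HeMs, C57BL/6J and A/J mice aged 12 to 13 weeks. Full-layer skin came from a hind leg given 30 Gy of gamma rays, and lung from a thorax given 10 Gy, in each case 1 h, 12 h or 72 h before dissection, and controls were not irradiated. Each of the 24 arrays held RNA pooled from 3 mice, so that every tissue, time and strain had a single array and the 3 arrays of a group were the 3 strains. All RNA was set against a common reference, a mixture of commercial total RNA from 10 organs. Skin RNA carried the dye Cy5 and lung RNA the dye Cy3, with the reference in the other dye, so dye and tissue cannot be told apart in any comparison of skin with lung. Every level below is log2 of sample over reference with the median of its array at 0, and a fold compares tissues for the same gene, never 2 genes.

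The tissue labels were checked against defining genes. The 5 epidermal genes measured (Krt5, Krt10, Krt15, Lor and Sprr1a) had a median of 5.73 in control skin and -1.46 in control lung. The 5 lung epithelial genes (Sftpc, Sftpd, Scgb1a1, Scgb3a1 and Ager) had a median of -3.67 in control skin and 2.77 in control lung. Of these Scgb3a1 did not separate the tissues. It was at 1.68, 1.15 and 1.71 in control skin of C3H/HeMs, C57BL/6J and A/J mice, against 0.56, 2.00 and 2.06 in control lung. The skin also held genes of the tissue under it: the mean of the 11 skeletal muscle genes measured ranged from -0.79 to 1.64 over the 3 control skin arrays, against -3.17 to -2.52 over the 3 control lung arrays. In C3H/HeMs skin all of the 11 except Actn3 were lower at 12 h and 72 h than in the control. There Tnni2 was at 3.41, 2.88, -0.49 and -0.44 in the control and at 1 h, 12 h and 72 h. Actn3 was at 3.01, 3.47, 3.95 and 3.66. The part of muscle in the Slc values of skin was not tested. The 4 lung arrays of C3H/HeMs and A/J at 12 h and 72 h stood apart, with correlations of 0.796 to 0.887 to the other 8 lung arrays, which correlated with each other at 0.898 to 0.959 over all features. Their deposited tables held 115 to 674 probes at exactly 0, against 1 to 23 on the other 8. Correlations between skin arrays ran from 0.771 to 0.946. The C57BL/6J skin array at 12 h stood apart in marker genes of several cell types. The fat cell gene Fabp4 was at 4.90 there and at 2.41 to 2.73 on the other 3 C57BL/6J skin arrays, the B cell gene Cd79a at -0.03, against -3.35 to -2.72, and the macrophage gene Chil3 at 0.82, against -2.44 to -1.61. Several results on lung strains and on lung at 12 h and 72 h are also given without the 4 lung arrays. Some results that rest on the C57BL/6J skin array at 12 h are also given without it. The rest are given only with these arrays.

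The study looked for genes that respond to radiation in both tissues and in all strains. Of the Slc genes 51.5% differed between control skin and lung (limma adjusted p under 0.05), against 58.1% of all features. Strain differences by an F test were few, in 3.03% of the Slc genes in lung and 0.758% in skin. Over all features those shares were 2.95% and 0.377%. After irradiation none of the Slc genes passed the test. Some of the genes that differed most between the tissues lie beside a relative on the chromosome. Slc26a3 and Slc26a4 on chromosome 12, with 1 other coding gene between them in the gene table, differed between the tissues in opposite directions, and Slc22a4 on chromosome 11 differed most in favour of skin. The stretches around their starts are shown with that of Slc2a1, the glucose carrier GLUT1, as RefSeq gives them on GRCm38.p6, from 250 bases before to 50 bases after the first listed start, 5′ to 3′ on the gene's strand. Capitals mark GC boxes, the motif GGGCGG on either strand.
Slc26a3, chr12:31437969-31438268, plus strand: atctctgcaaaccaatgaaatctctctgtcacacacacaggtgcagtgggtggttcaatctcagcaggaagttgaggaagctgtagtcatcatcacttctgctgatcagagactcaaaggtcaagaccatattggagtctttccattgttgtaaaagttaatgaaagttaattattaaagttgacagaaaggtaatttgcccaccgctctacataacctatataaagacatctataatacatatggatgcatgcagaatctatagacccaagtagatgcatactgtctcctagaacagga
Slc26a4, chr12:31559935-31560234, minus strand: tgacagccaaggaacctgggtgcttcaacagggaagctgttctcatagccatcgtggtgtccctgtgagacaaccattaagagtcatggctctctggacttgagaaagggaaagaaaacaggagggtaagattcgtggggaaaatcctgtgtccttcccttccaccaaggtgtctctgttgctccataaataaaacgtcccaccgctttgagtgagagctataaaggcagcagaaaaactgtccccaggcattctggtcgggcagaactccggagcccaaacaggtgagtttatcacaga
Slc22a4, chr11:54028055-54028354, minus strand: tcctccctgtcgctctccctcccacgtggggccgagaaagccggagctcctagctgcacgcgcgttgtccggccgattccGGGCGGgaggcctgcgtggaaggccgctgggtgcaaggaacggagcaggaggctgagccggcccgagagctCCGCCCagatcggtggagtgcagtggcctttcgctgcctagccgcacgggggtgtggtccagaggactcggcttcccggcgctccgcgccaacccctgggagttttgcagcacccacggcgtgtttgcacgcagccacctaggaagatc
Slc2a1, chr4:119108495-119108794, plus strand: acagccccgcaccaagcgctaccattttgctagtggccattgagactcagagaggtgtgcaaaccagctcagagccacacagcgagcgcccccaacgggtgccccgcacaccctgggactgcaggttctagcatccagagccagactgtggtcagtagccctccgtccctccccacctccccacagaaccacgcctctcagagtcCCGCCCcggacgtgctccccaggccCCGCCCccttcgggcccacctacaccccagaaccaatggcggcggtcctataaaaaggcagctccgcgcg

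The windows of Slc22a4 and Slc2a1 each held 2 GC boxes, and those of Slc26a3 and Slc26a4 held none. Such a window was found by symbol for 111 of the 132 genes. A GC box occurred in 34 of 48 windows of genes higher in skin (70.8%), 4 of 9 of genes lower in skin (44.4%), and 34 of 54 of genes that did not pass (63.0%). Over the first starts of all 27025 genes in the table, whether or not they are on the array, 35.9% of windows held it. The median GC content of the Slc windows was 61.0%, against 52.7% in the table. A match of letters is a description and says nothing of binding.

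Most Slc genes stood lower in lung than in the mixed-organ reference, and skin was nearer to it. In control skin 64 of the 132 genes (48.5%) lay above the reference, and in control lung 44 (33.3%), where 49.7% and 50.2% of all features did. The median level was -0.03 in skin and -0.47 in lung. Across the 132 genes the control levels of skin and lung had a Pearson correlation of 0.768, against 0.318 over all 8750 features. This correlation is across genes, which are not independent replicates, and all points share the reference.

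**Figure D1:**
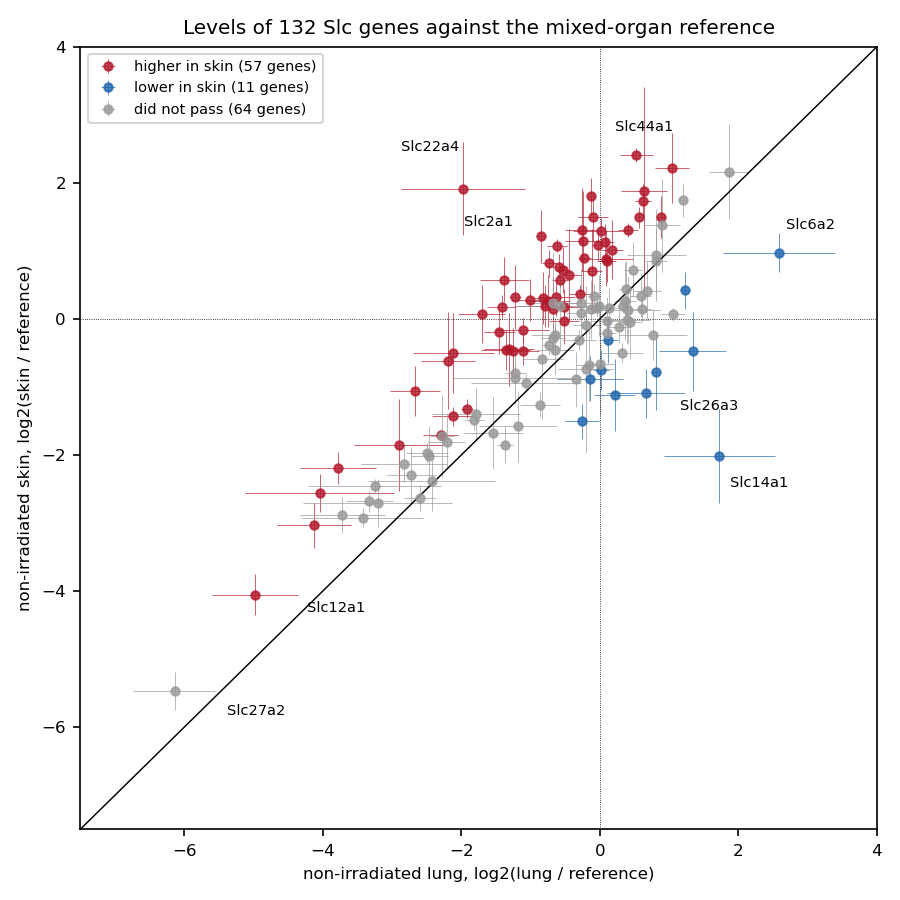
Mean log2 level against the reference of 132 Slc genes in control skin (vertical axis) and control lung (horizontal axis), with the SD over 3 strains as bars; the diagonal marks equal levels. The 57 genes higher in skin lie above the diagonal and the 11 lower in skin below it, and Slc27a2 is the lowest point on both axes.

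A ratio to the reference also depends on how much of a gene the reference organs hold, so the order of ratios below is not an order of transcript amounts. The ratios furthest below the reference in both tissues belonged to carriers known from kidney and liver. Slc27a2, a fatty acid transport protein and acyl-CoA synthetase of liver and kidney, averaged -5.47 ± 0.28 in control skin and -6.14 ± 0.60 in control lung (SD, n = 3 each), close to the lower limit of the deposited ratio at -6.64. Slc12a1, the sodium, potassium and chloride cotransporter of the kidney's loop of Henle, averaged -4.06 ± 0.30 in skin and -4.97 ± 0.62 in lung. Slc22a8, an organic anion transporter of the kidney, averaged -3.03 ± 0.33 in skin and -4.13 ± 0.53 in lung. In all 15 genes had a mean below -2 in both tissues, and 14 of them were nearer to the reference in skin. That share, 93.3%, compares with 81.9% of the 237 features of all kinds below -2 in both tissues. Their median differences were 0.67 for the Slc genes and 0.56 for those features.

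At the other end, Slc44a1, a choline transporter, averaged 2.41 ± 0.11 in control skin and 0.53 ± 0.24 in control lung. Slc31a2, a relative of the copper importer, averaged 2.22 ± 0.52 in skin and 1.04 ± 0.25 in lung. Slc6a14, a carrier of neutral and cationic amino acids found in lung epithelium, was high in both tissues, at 2.16 ± 0.70 in skin and 1.86 ± 0.28 in lung, and its difference did not pass the test (0.30 ± 0.40, SE, limma adjusted p = 0.534). The noradrenaline transporter Slc6a2 had a ratio of 0.97 ± 0.29 in skin and 2.59 ± 0.81 in lung, where the C57BL/6J control, at 3.53, lay above those of C3H/HeMs and A/J, at 2.13 and 2.11. The other lung ratios furthest above the reference were those of Slc6a14, Slc14a1, Slc39a8, Slc23a2 and Slc44a2, and the last of these, a choline transporter-like protein, averaged 1.75 ± 0.24 in skin and 1.20 ± 0.06 in lung.

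Non-irradiated skin was set against non-irradiated lung in a linear model of all 24 arrays with strain as a block (limma, Benjamini-Hochberg adjustment over all 8750 features, threshold 0.05). Of the 132 genes, 57 were higher and 11 lower in skin, and 64 did not pass. The 68 that passed were 51.5% of the Slc genes, where 58.1% of all features passed. Over all features 35.6% were higher and 22.5% lower in skin, against 43.2% and 8.33% of the Slc genes. The median difference was 0.517 for the Slc genes and 0.240 for all features. Without centring of the arrays, 47 Slc genes were higher and 19 lower, with the median of all features at 0.063. In bulk tissue a lower share of the cells that express a gene cannot be told apart from less RNA of that gene per cell.

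**Figure D2:**
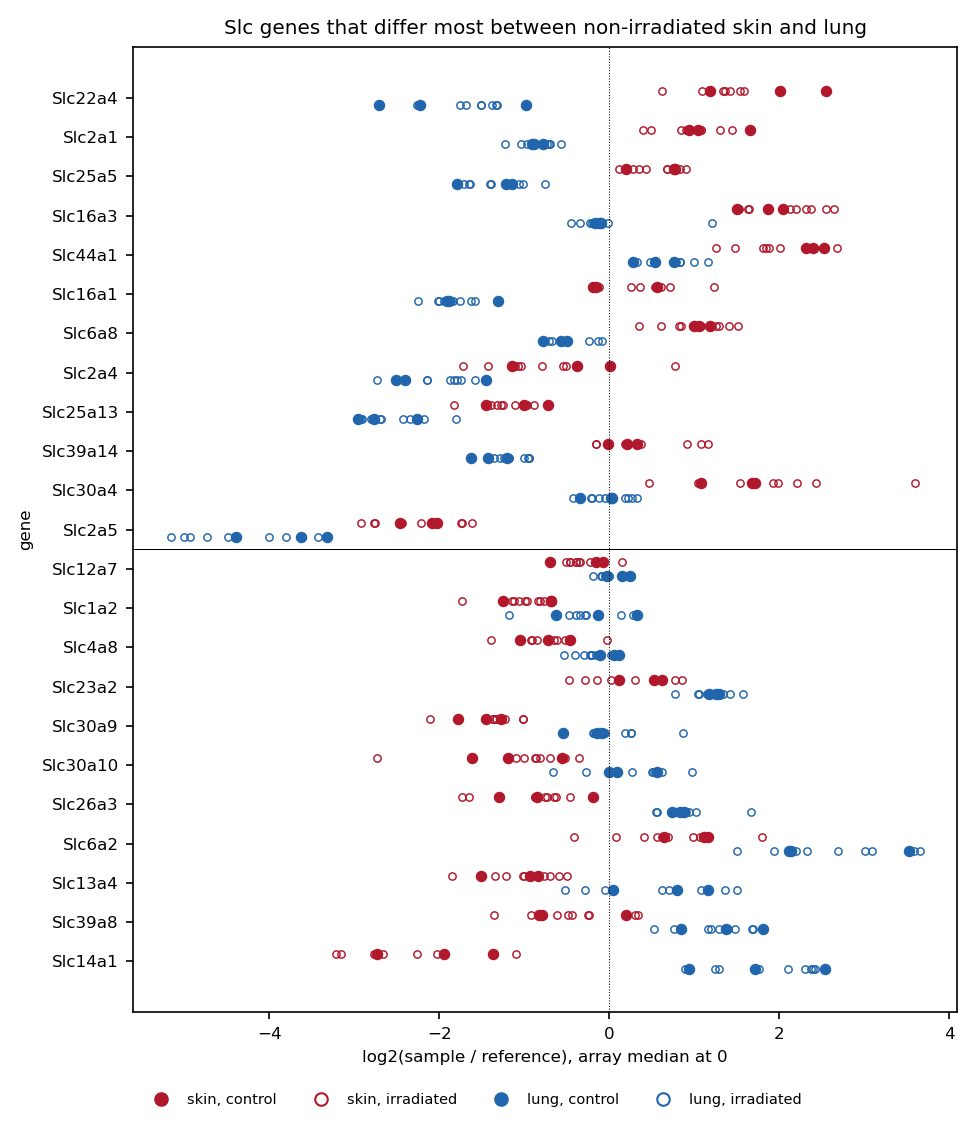
Log2 level against the reference (horizontal axis) of 23 Slc genes in each of 12 skin arrays (red, upper row of each gene) and 12 lung arrays (blue, lower row), controls filled and irradiated arrays open. Genes above the line are the 12 with the largest rise and those below it the 11 that fell in skin; for Slc22a4 and Slc14a1 no skin array reaches the lung arrays.

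The largest difference in favour of skin was that of Slc22a4, the ergothioneine transporter. It measured 2.55, 1.19 and 2.01 in control skin of C3H/HeMs, C57BL/6J and A/J mice, against -2.71, -2.22 and -0.98 in their control lungs. All 12 skin arrays, irradiated ones included, were above all 12 lung arrays. The difference was 3.89 ± 0.36 (SE), a 14.8-fold higher ratio in skin, with a limma adjusted p of 1.86e-07. Its neighbour Slc22a5, the carnitine transporter, measured -0.30, -0.25 and -0.84 in skin and -1.20, -1.26 and -1.29 in lung, in the same order of strains. That difference, 0.79 ± 0.17, had the same direction and was much smaller (adjusted p = 9.08e-04).

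Several carriers of glucose and lactate were higher in skin. Slc2a1 measured 1.65, 1.05 and 0.94 in control skin of C3H/HeMs, C57BL/6J and A/J mice, against -0.91, -0.88 and -0.78 in control lung. The groups did not overlap, over the controls or over all 24 arrays, and the ratio was 4.19-fold higher in skin (2.07 ± 0.21, adjusted p = 4.17e-07). Of the 8 genes of the sugar and polyol families 5 were higher in skin, none was lower, and the median difference was 1.32. The others that passed were Slc2a4, Slc2a5, Slc2a8 and Slc5a6, and Slc5a6 carries vitamins despite its family. Slc2a2, Slc2a10 and Slc50a1 did not pass, and the lowest difference in the class was -0.99. Slc2a5, the fructose transporter, stayed far below the reference in both tissues, at -2.19 ± 0.24 in skin and -3.78 ± 0.55 in lung.

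Slc2a4 encodes GLUT4, the insulin-responsive glucose transporter of muscle and fat. It measured 0.01, -0.38 and -1.15 in control skin of C3H/HeMs, C57BL/6J and A/J mice, against -2.51, -2.40 and -1.45 in control lung, a difference of 1.61 ± 0.47 (adjusted p = 0.0075). Its call ended without the C3H/HeMs arrays (1.16, adjusted p = 0.102), without the C3H/HeMs skin control (adjusted p = 0.0526) and without the C57BL/6J arrays (1.41, adjusted p = 0.0523). Of 11 skeletal muscle genes measured, 9 were higher in skin with a median difference of 3.73, and of 4 fat cell genes 3 were, with a median of 1.90. Their part in the Slc2a4 difference was not tested.

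All 3 monocarboxylate transporters measured, which carry lactate, pyruvate and ketone bodies, were higher in skin. Slc16a3 (MCT4), known for lactate export from glycolytic cells, measured 1.50, 2.04 and 1.87 in control skin of C3H/HeMs, C57BL/6J and A/J mice and -0.17, -0.10 and -0.12 in control lung. Slc16a1 (MCT1) measured -0.19, -0.16 and 0.56 in skin and -1.91, -1.89 and -1.31 in lung. The differences were 1.94 ± 0.31 and 1.77 ± 0.21 (adjusted p = 6.04e-05 and 2.43e-06), and for both genes no skin array overlapped a lung array. Slc16a7 (MCT2) was low in both tissues and its controls overlapped (1.06 ± 0.28, adjusted p = 0.00412).

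Of 19 mitochondrial carriers, 12 were higher in skin, none was lower, and the median difference was 0.68. Slc25a5, the ADP/ATP carrier of most growing cells, measured 0.20, 0.77 and 0.77 in control skin of C3H/HeMs, C57BL/6J and A/J mice, against -1.79, -1.22 and -1.14 in control lung, a 3.89-fold higher ratio in skin (1.96 ± 0.26, adjusted p = 7.82e-06). Slc25a4, the ADP/ATP carrier of heart and muscle, averaged -1.72 ± 0.60 in skin and -2.28 ± 0.17 in lung, and the difference of 0.56 ± 0.29 did not pass (adjusted p = 0.111). Slc25a1, the citrate carrier, and Slc25a20, the carnitine and acylcarnitine carrier, differed by 1.57 ± 0.37 and 1.28 ± 0.16, and Slc25a13, the aspartate and glutamate carrier, by 1.61 ± 0.26. Without centring 11 of the 19 were higher in skin and Slc25a33, a pyrimidine nucleotide carrier, was lower.

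Among 23 genes of the amino acid families 9 were higher in skin, 2 lower and 12 did not pass, with a median difference of 0.75. Slc6a8, the creatine transporter, measured 1.19, 1.05 and 0.99 in control skin of C3H/HeMs, C57BL/6J and A/J mice, against -0.57, -0.78 and -0.49 in control lung (1.69 ± 0.26, adjusted p = 3.25e-05). Slc7a5, the carrier of large neutral amino acids, averaged -0.61 ± 0.71 in skin and -2.19 ± 0.39 in lung, and its partner chain Slc3a2 0.85 ± 0.31 in skin and 0.10 ± 0.14 in lung. Both passed (1.58 ± 0.30 and 0.75 ± 0.19, adjusted p = 2.57e-04 and 0.00304). Slc36a1, a proton-coupled carrier of small amino acids, Slc7a6 and Slc7a1, carriers of cationic amino acids, and Slc6a9, a glycine transporter, were among the others higher in skin. The last 2 of the 9 were Slc38a7 and the serotonin transporter Slc6a4, whose controls overlapped between the tissues.

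The 2 genes of this class that were lower in skin were Slc6a2 and Slc1a2. Slc6a2, which takes noradrenaline up into nerve endings and, in lung, into capillary endothelium, measured 1.16, 0.64 and 1.12 in control skin of C3H/HeMs, C57BL/6J and A/J mice, against 2.13, 3.53 and 2.11 in control lung. Its difference of -1.62 ± 0.47 passed (adjusted p = 0.00726), and ended without the C57BL/6J arrays (-0.98, adjusted p = 0.147) or without the C57BL/6J lung control alone (-1.18, adjusted p = 0.059). All 5 endothelial genes measured were lower in skin, with a median difference of -3.03, and their part in the result was not tested. Slc1a2, the glutamate transporter of glia, passed narrowly (-0.73 ± 0.30, adjusted p = 0.0451) and lost its call in 10 of 18 alternatives.

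Slc14a1, the urea transporter of red cells and of kidney vessels, showed the largest difference in favour of lung. It measured -1.94, -1.36 and -2.73 in control skin of C3H/HeMs, C57BL/6J and A/J mice, against 1.71, 2.54 and 0.94 in control lung. No skin array overlapped a lung array, and the ratio was 13.4-fold lower in skin (-3.74 ± 0.26, adjusted p = 8.06e-09). Of the 4 red cell genes measured (Alas2, Ermap, Rhag and Klf1) none differed between the tissues by the test, with a median difference of -0.25. Slc4a1, the chloride and bicarbonate exchanger of the red cell membrane, was below the reference in both tissues, at -1.39 ± 0.38 in skin and -1.79 ± 0.63 in lung (adjusted p = 0.555). The endothelial genes measured were lower in skin, as given above for Slc6a2. The part of red cells and of vessels in the Slc14a1 difference was not tested.

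The zinc transporters were divided, with 3 of 9 higher in skin, 3 lower and 3 that did not pass. Slc39a8 (ZIP8), an importer of zinc and manganese, measured -0.83, 0.20 and -0.79 in control skin of C3H/HeMs, C57BL/6J and A/J mice, against 1.81, 1.37 and 0.85 in control lung (-1.82 ± 0.36, adjusted p = 3.58e-04). Its close relative Slc39a14 (ZIP14) ran the other way, at -0.02, 0.21 and 0.33 in skin, against -1.20, -1.62 and -1.42 in lung (1.59 ± 0.28, adjusted p = 1.53e-04). For both genes the 12 skin and 12 lung arrays did not overlap. Slc30a4, a zinc exporter into vesicles and milk, averaged 1.50 ± 0.36 in skin and -0.09 ± 0.22 in lung (1.59 ± 0.37). Slc30a10, a manganese exporter, and Slc30a9 were lower in skin, by -1.34 ± 0.35 and -1.25 ± 0.27. The counts of 3 and 3 were the same without centring and after quantile normalization.

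Slc26a3, the chloride and bicarbonate exchanger of the colon, measured -1.30, -0.85 and -0.19 in control skin of C3H/HeMs, C57BL/6J and A/J mice, against 0.74, 0.88 and 0.83 in control lung. Slc26a4 (pendrin), its neighbour whose start is shown above, measured 0.98, 0.71 and 0.62 in skin, against -0.70, -0.56 and -0.49 in lung. The differences were -1.60 ± 0.28 and 1.36 ± 0.19 (adjusted p = 1.45e-04 and 1.58e-05), and over all 24 arrays neither gene's skin values overlapped its lung values. A pair of the same family on chromosome 4, the copper importer Slc31a1 and Slc31a2, differed in the same direction, by 1.14 ± 0.21 and 1.18 ± 0.33. Of all 11 bicarbonate and anion exchangers, 2 were higher in skin, 2 lower and 7 did not pass.

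Of 7 genes of the vitamin, folate and choline families, 4 were higher in skin and 1, Slc23a2, was lower. The choline transporter Slc44a1 differed by 1.88 ± 0.29, the proton-coupled folate transporter Slc46a1 by 1.13 ± 0.19 and the reduced folate carrier Slc19a1 by 0.93 ± 0.24. Slc23a2, a vitamin C transporter, measured 0.62, 0.11 and 0.53 in control skin of C3H/HeMs, C57BL/6J and A/J mice, against 1.25, 1.29 and 1.17 in control lung (-0.82 ± 0.24, adjusted p = 0.00755). Slc13a4, a sulphate transporter, was lower in skin (-1.76 ± 0.41, adjusted p = 0.00153) and differed between strains in lung, as given below. The remaining genes lower in skin were Slc4a8, a sodium-driven bicarbonate exchanger (-0.77 ± 0.23, from probes at -0.33 and -1.22), and Slc12a7, a potassium and chloride cotransporter (-0.43 ± 0.17), and the second lost its call in 8 of 18 alternatives.

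**Figure D3:**
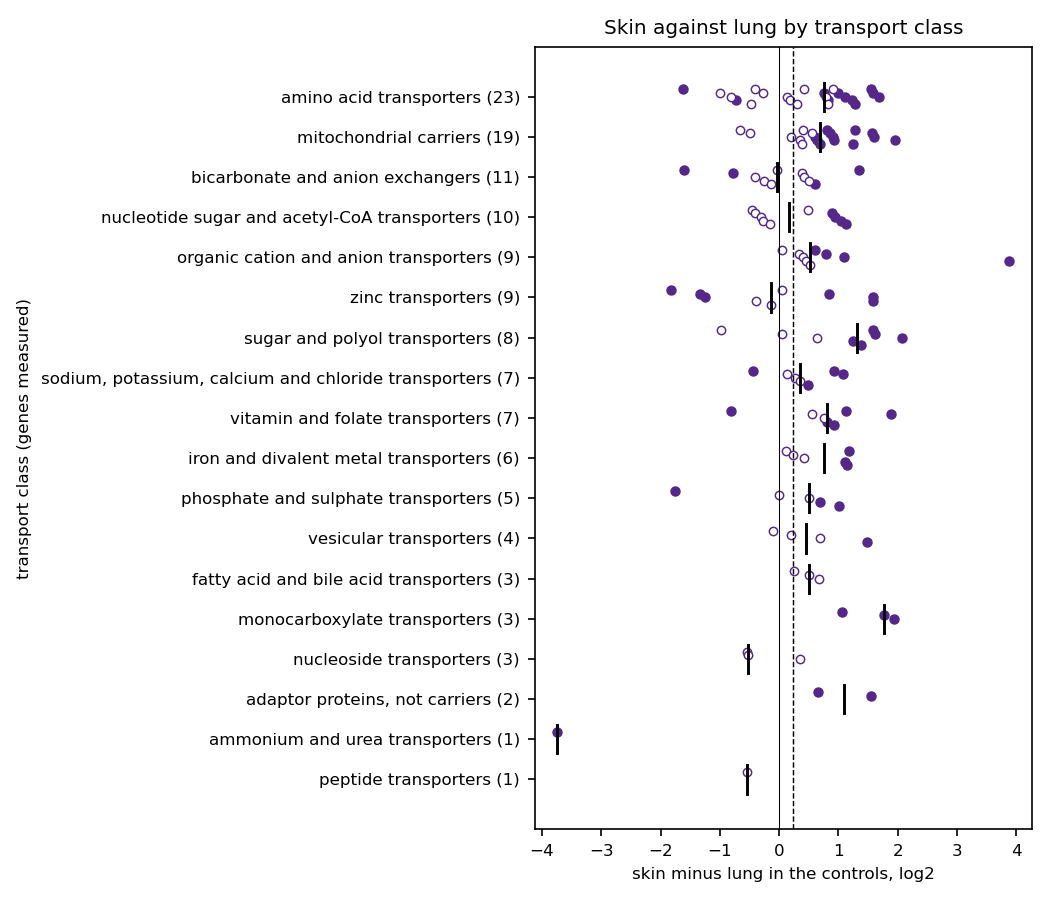
Skin minus lung in the controls (horizontal axis, log2) for the Slc genes of each transport class (vertical axis, number measured in brackets), filled where the limma adjusted p was under 0.05, with the class median as a bar and the median of all 8750 features as a dashed line. Sugar and monocarboxylate carriers have the highest medians among classes of at least 3 genes (1.32 and 1.77), and zinc transporters fall on both sides of 0.

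Strains were compared within a tissue over the 4 arrays of each strain, with time as a term, so that the comparison mixes controls and irradiated mice. In lung, an F test across the 3 strains called 4 of the 132 genes (3.03%), where 2.95% of all features were called. In skin it called 1 (0.758%, against 0.377% of all features). The genes were Slc13a4, Slc15a2, Slc13a3 and Slc1a4 in lung and Slc14a1 in skin.

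Slc13a4 had the clearest strain pattern in lung. Its lung levels were 1.16, 0.62, 1.50 and 1.16 in C3H/HeMs (control, 1 h, 12 h and 72 h), 0.05, -0.52, -0.05 and -0.29 in C57BL/6J, and 0.80, 0.70, 1.36 and 1.07 in A/J mice. Every C57BL/6J lung array was below every lung array of the other strains. C3H/HeMs exceeded C57BL/6J by 1.31 ± 0.13 (SE, limma adjusted p = 0.00224, 1.82% of all features called, 1.04% higher and 0.777% lower) and C57BL/6J was below A/J by a difference of -1.19 ± 0.13 (adjusted p = 0.00415, 3.68% called), while C3H/HeMs and A/J differed by 0.12 ± 0.13 (adjusted p = 0.793, 0.423% called). Without the 4 lung arrays that stand apart the differences were 1.13 and -0.99, and neither passed (adjusted p = 0.129 and 0.0884), with 2 arrays left for C3H/HeMs and for A/J. With that set of arrays as a block they were 1.12 and -0.99 and both passed (adjusted p = 0.0232 and 0.0303).

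In skin Slc13a4 averaged -1.39 ± 0.37 in C3H/HeMs, -0.87 ± 0.36 in C57BL/6J and -0.80 ± 0.17 in A/J mice (SD, n = 4 each). There C3H/HeMs had the lowest mean, with a difference of -0.53 ± 0.22 from C57BL/6J that did not pass (adjusted p = 0.331, 0.183% of all features called, 0.0457% lower). C3H/HeMs minus C57BL/6J in skin, minus the same in lung, was -1.84 ± 0.26 in a joint fit of both tissues (adjusted p = 0.00533, 0.297% of all features called), a comparison added after the data were seen. Without the C57BL/6J skin array at 12 h it was -1.71 (adjusted p = 0.0145). The call ended without the 4 lung arrays (-1.65, adjusted p = 0.231) and with their set as a block (-1.64, adjusted p = 0.0553). Slc13a3, a dicarboxylate transporter of the same family, was also lowest in lungs of C57BL/6J mice, at -1.69 ± 0.32 in C3H/HeMs, -2.34 ± 0.19 in C57BL/6J and -1.65 ± 0.39 in A/J. It passed for C3H/HeMs minus C57BL/6J (0.66 ± 0.13, adjusted p = 0.045) and for C57BL/6J minus A/J (-0.70 ± 0.13, adjusted p = 0.0277), and neither call held without the 4 arrays (0.52 and -0.50, adjusted p = 0.228 and 0.176).

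The means of Slc14a1 had the order C57BL/6J, C3H/HeMs, A/J in both tissues, and only C57BL/6J minus A/J passed. In skin its levels ran from -2.66 to -1.94 in C3H/HeMs, from -1.95 to -1.09 in C57BL/6J and from -3.21 to -2.73 in A/J mice, and the ranges of C57BL/6J and A/J did not overlap. C57BL/6J exceeded A/J by 1.53 ± 0.21 in skin (adjusted p = 0.037, 0.354% of all features called) and by 1.14 ± 0.23 in lung (adjusted p = 0.0358). In lung its means were 1.93 ± 0.53 in C3H/HeMs, 2.35 ± 0.18 in C57BL/6J and 1.21 ± 0.40 in A/J (SD, n = 4 each). The difference of C57BL/6J over A/J was 0.38 ± 0.32 larger in skin than in lung, which did not pass (adjusted p = 0.542). Without the 4 lung arrays the lung value was 1.54 (adjusted p = 0.0699), and the skin call was lost in 12 of 19 alternatives, with values of 1.29 to 1.80 over the 19. Without the C57BL/6J skin array at 12 h the skin value was 1.57 (adjusted p = 0.0964). The mean of the 4 red cell genes ranged from -0.89 to -0.55 in C3H/HeMs, -0.62 to -0.26 in C57BL/6J and -1.33 to -0.01 in A/J lungs, and its part was not tested.

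**Figure D4:**
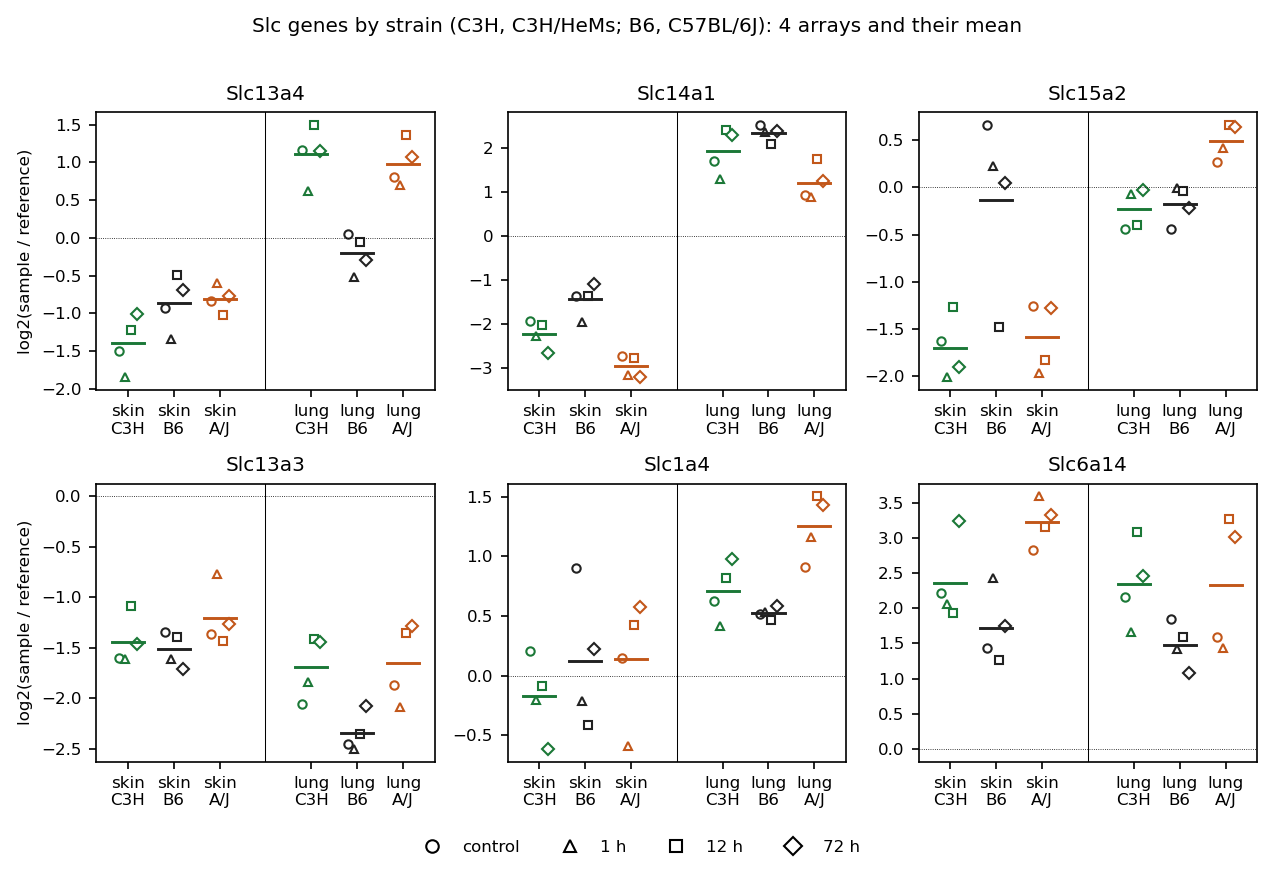
Log2 level against the reference (vertical axis) of 6 Slc genes by tissue and strain (horizontal axis), with 4 arrays per strain as symbols for control, 1 h, 12 h and 72 h and their mean as a bar. Every C57BL/6J lung array of Slc13a4 lies below those of the other strains, and 3 of 4 C57BL/6J skin arrays of Slc15a2 lie above all C3H/HeMs and A/J skin arrays.

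Slc15a2 (PEPT2), the transporter of short peptides known from kidney and airway epithelium, had a different order of strains in each tissue. In lung it measured -0.44, -0.07, -0.40 and -0.03 in C3H/HeMs (control, 1 h, 12 h and 72 h), -0.44, -0.01, -0.04 and -0.22 in C57BL/6J, and 0.27, 0.41, 0.66 and 0.64 in A/J mice, the last above the first 2 strains at every time. In skin it measured -1.63, -2.01, -1.27 and -1.90 in C3H/HeMs, 0.66, 0.23, -1.47 and 0.05 in C57BL/6J, and -1.26, -1.96, -1.83 and -1.28 in A/J mice. C57BL/6J skin was the highest of the 3 strains in the control, at 1 h and at 72 h, and at 12 h it was within the range of the other strains. C57BL/6J minus A/J was -0.67 ± 0.13 in lung (adjusted p = 0.0288) and 1.45 ± 0.37 in skin, which did not pass (adjusted p = 0.154). The difference between these, 2.12 ± 0.42, passed in the joint fit (adjusted p = 0.0412, 0.537% of all features called), and the call was lost in 17 of 31 alternatives, among them the fit without the 4 lung arrays (2.01, adjusted p = 0.318). Without the C57BL/6J skin array at 12 h it was 2.60 (adjusted p = 9.54e-04). The F test of the interaction over all 3 strains missed the threshold for Slc15a2 (adjusted p = 0.0557).

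Slc1a4, a carrier of alanine, serine and cysteine, averaged 0.71 ± 0.24 in C3H/HeMs, 0.53 ± 0.05 in C57BL/6J and 1.25 ± 0.27 in A/J lungs (SD, n = 4 each). C57BL/6J minus A/J was -0.72 ± 0.13 (adjusted p = 0.0273), and -0.51 without the 4 arrays (adjusted p = 0.173). Slc22a12, the urate transporter of the kidney, and Slc25a16, a mitochondrial carrier, were also lower in C57BL/6J than in A/J lungs (-0.59 ± 0.13 and -0.47 ± 0.11, adjusted p = 0.0421 and 0.0497), and both lost the call in most alternatives, in 15 and 20 of 21. In all, C57BL/6J minus A/J in lung called 7 Slc genes, 1 higher and 6 lower (5.3%, against 3.68% of all features, of which 1.95% were higher and 1.73% lower).

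In skin the amino acid carrier Slc6a14 averaged 2.37 ± 0.60 in C3H/HeMs, 1.72 ± 0.52 in C57BL/6J and 3.23 ± 0.32 in A/J mice, and its F test missed the threshold (adjusted p = 0.0912). The lowest A/J array, 2.83, was above the highest C57BL/6J array, 2.44. Slc6a4, the serotonin transporter, was uneven within C57BL/6J skin, at 0.11, 2.00, 0.18 and 1.07 over the 4 times, against 2.91, 2.49, 1.14 and 2.07 in C3H/HeMs and 2.61, 2.50, 2.78 and 2.71 in A/J skin (adjusted p = 0.114). Slc24a3, an exchanger of sodium, calcium and potassium, averaged 0.35 ± 0.49 in C3H/HeMs, -0.03 ± 0.46 in C57BL/6J and 1.18 ± 0.15 in A/J skin (adjusted p = 0.115). The kidney-type carriers Slc22a8, Slc13a1 and Slc6a18, all below -2 on average in every strain, had adjusted p values from 0.096 to 0.127.

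No Slc gene passed the test after irradiation, in either tissue at any time, in the fit of 12 arrays per tissue with strain as a block. Over all features limma called none in skin at 1 h, 12 h or 72 h, and 1 at 1 h (0.0114%), 10 at 12 h (0.114%) and 10 at 72 h (0.114%) in lung. At an unadjusted p under 0.05 there were 10, 14 and 7 of the 132 genes at 1 h, 12 h and 72 h in skin and 4, 17 and 15 in lung. These were 7.58%, 10.6% and 5.3% of the Slc genes in skin, against 4.37%, 6.71% and 7.39% of all features, and 3.03%, 12.9% and 11.4% in lung, against 2.24%, 12.1% and 12.4%. No alternative run called a member either. The values that follow, for genes named by their unadjusted p, are a description. The comparisons of 1 h, 12 h and 72 h with control share the same 3 control arrays in each tissue.

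Slc25a25, the mitochondrial carrier that exchanges ATP-Mg for phosphate, had among the smallest p values 1 h after irradiation in both tissues. Its skin levels in C3H/HeMs, C57BL/6J and A/J mice were 0.45, 0.77 and 0.28 at 1 h, against -0.14, -0.03 and -0.54 in the controls, and the groups did not overlap. Its lung levels were 0.12, -0.32 and -0.02 at 1 h, against -0.26, -0.76 and -0.92 in the controls, and the groups overlapped. All 6 pairs of an irradiated array and the control of its strain were higher at 1 h. The differences were 0.74 ± 0.26 in skin and 0.57 ± 0.15 in lung (unadjusted p = 0.0183 and 0.00337, adjusted p = 1 in both). By 72 h skin was at -0.68, -0.89 and -0.32 and lung at -0.35, -0.71 and -0.36, in the same order of strains.

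Slc7a1, a carrier of arginine and lysine, differed from control at 1 h in lung by 0.13, 0.71 and 0.46 in C3H/HeMs, C57BL/6J and A/J mice, and the groups overlapped (0.44 ± 0.14, adjusted p = 1). Slc46a3 of the folate carrier family differed from control at 1 h in lung by -0.50, -0.64 and -0.60 in the same order of strains, and its groups overlapped (-0.58 ± 0.26). In skin at 1 h Slc16a1, the lactate carrier MCT1, was at 0.56, 0.26 and 1.23, against -0.19, -0.16 and 0.56 in the controls of C3H/HeMs, C57BL/6J and A/J mice (0.61 ± 0.25, adjusted p = 1).

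**Figure D5:**
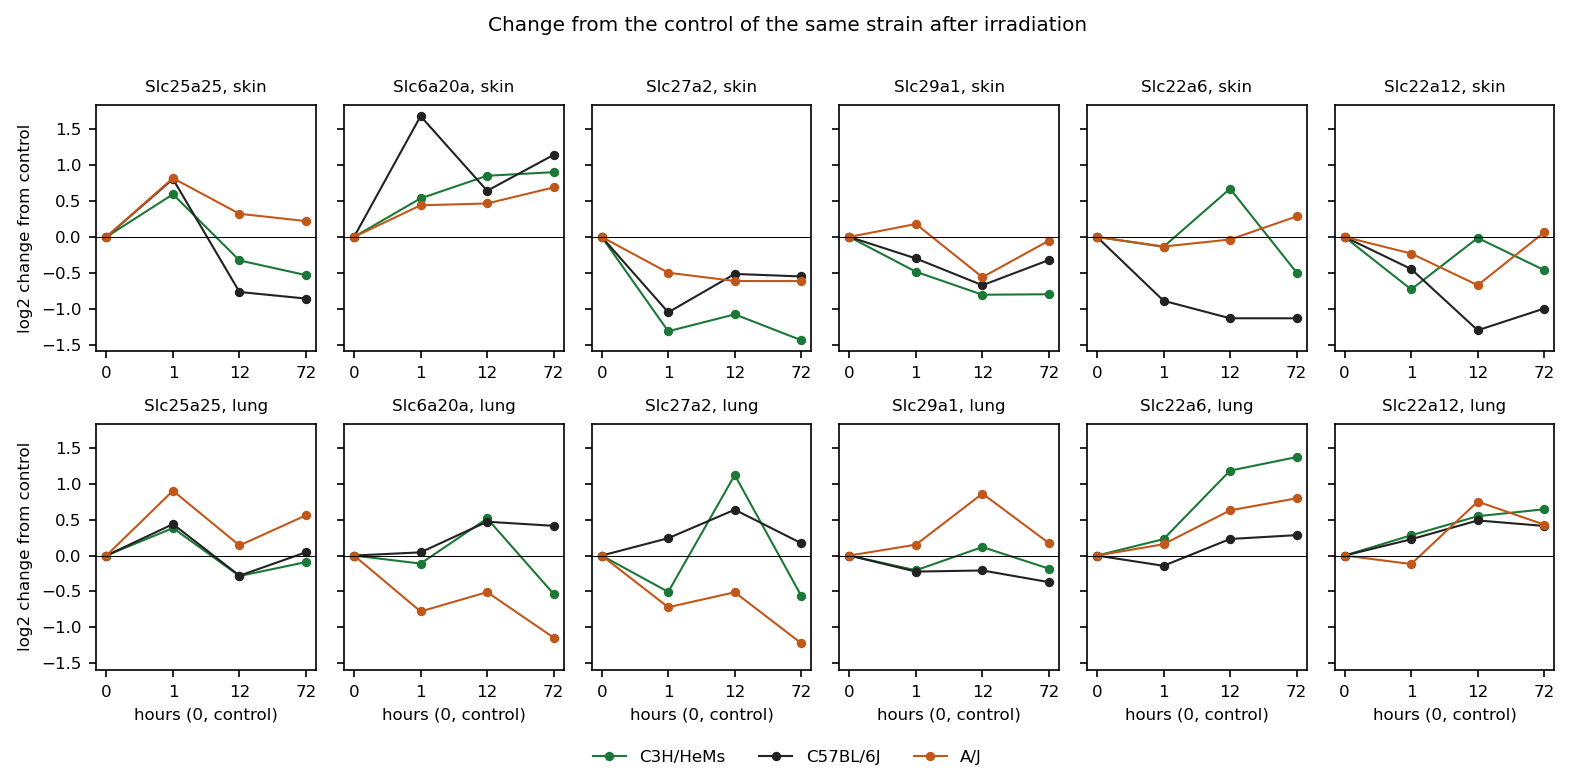
Change in log2 level from the control of the same strain (vertical axis) at 1 h, 12 h and 72 h (horizontal axis, equally spaced) for 6 Slc genes in skin (upper row) and lung (lower row), with 1 array per point and a line per strain. Slc25a25 is above its control at 1 h in all 3 strains of both tissues, Slc6a20a is above it at every time in skin, and no difference passed the test.

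Slc6a20a, a carrier of proline and related imino acids, was above the control of its strain in all 9 irradiated skin arrays, by 0.54 to 0.90 in C3H/HeMs, 0.64 to 1.68 in C57BL/6J and 0.44 to 0.69 in A/J mice. The differences were 0.89 ± 0.27 at 1 h and 0.91 ± 0.27 at 72 h (unadjusted p = 0.00885 and 0.00761, adjusted p = 1 and 0.65), and irradiated and control arrays overlapped. In lung it was at -1.59, -0.26 and -1.46 at 72 h, against -1.05, -0.67 and -0.31 in the controls of C3H/HeMs, C57BL/6J and A/J mice. The response in skin minus that in lung was 1.17 ± 0.39 at 1 h and 1.33 ± 0.39 at 72 h, and did not pass (adjusted p = 1 and 0.367, with none of the 8750 features called at either time).

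Slc27a2 was below the control of its strain in all 9 irradiated skin arrays. The 9 lay between -6.63 and -5.98, against -5.19, -5.47 and -5.75 in the controls of C3H/HeMs, C57BL/6J and A/J mice, so the groups did not overlap at any time. The differences were -0.96 ± 0.23, -0.74 ± 0.23 and -0.87 ± 0.23 at 1 h, 12 h and 72 h (adjusted p = 1, 0.604 and 0.65). These levels lie at the lower limit of the deposited ratio, where values have little room to differ. At 12 h in skin the nucleoside carrier Slc29a1 was at -0.81, -0.44 and -0.54, against -0.00, 0.23 and 0.02 in the controls (-0.68 ± 0.20, adjusted p = 0.595), and the sulphate carrier Slc26a2 at 2.40, 1.93 and 2.10, against 1.78, 1.17 and 1.54 (0.65 ± 0.23, adjusted p = 0.652). For both genes irradiated and control skin did not overlap. Without the C57BL/6J array at 12 h the differences of Slc29a1, Slc26a2 and Slc27a2 at that time were -0.69, 0.66 and -0.81. At 72 h Slc16a7, Slc3a1 and Slc25a10 had the next smallest p in skin, with differences of -0.96 ± 0.31, -0.84 ± 0.28 and -0.75 ± 0.29.

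The 5 smallest p values in lung belonged to Slc22a12, Slc29a2, Slc22a6, Slc13a3 and Slc9a8 at 12 h, and to Slc22a6, Slc39a11, Slc13a3, Slc22a12 and Slc24a3 at 72 h. Slc22a6 (OAT1), an organic anion transporter of the kidney, was at -1.26, -2.31 and -1.36 in lungs of C3H/HeMs, C57BL/6J and A/J mice at 72 h, against -2.64, -2.60 and -2.16 in the controls. The change was 1.37 and 0.80 in C3H/HeMs and A/J, whose arrays stand apart, and 0.28 in C57BL/6J. The fitted difference was 0.82 ± 0.20 (adjusted p = 0.296), 0.40 without the 4 arrays and 0.44 with their set as a block. Slc22a12 was more even over the strains, with changes of 0.55, 0.49 and 0.75 at 12 h in C3H/HeMs, C57BL/6J and A/J (0.60 ± 0.15, adjusted p = 0.289), and 0.44 without the 4 arrays. Slc13a3 differed by 0.42 ± 0.15 at 12 h and 0.53 ± 0.15 at 72 h, and by 0.11 and 0.39 without them. All 3 genes stayed more than 2-fold below the reference on every lung array.

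The count of Slc genes at an unadjusted p under 0.05 in lung moved with the 4 arrays: it was 17 at 12 h and 15 at 72 h with them, 5 and 8 without them, and 4 and 5 with their set as a block. Over all features the share at that p was 12.1% and 12.4% with them, 9.52% and 8.91% without them, and 5.54% and 5.07% with the block. The Slc shares were 12.9% and 11.4%, then 3.79% and 6.06%, then 3.03% and 3.79%. At 72 h all 15 were higher than in the controls, and of all features 6.72% were higher and 5.68% lower at that p (0.0914% and 0.0229% at the adjusted threshold). The nucleoside carrier Slc29a2 changed by 0.34, 0.49 and 0.61 at 12 h in C3H/HeMs, C57BL/6J and A/J (0.48 ± 0.13, adjusted p = 0.316), and by 0.50 without the 4 arrays, when C57BL/6J alone has an array at 12 h. The zinc transporter Slc39a11 was at 0.69, 0.51 and 0.92 at 72 h, against -0.01, 0.25 and 0.30 in the controls, without overlap (0.53 ± 0.13, adjusted p = 0.298), and its difference was 0.35 without them. The largest fall at 12 h among genes at that p, that of the betaine carrier Slc6a12 (-1.15 ± 0.43), had changes of -0.38, -0.36 and -2.71 in C3H/HeMs, C57BL/6J and A/J mice, and was picked out after its values were seen.

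Set against each other, the responses of skin and lung did not differ by the test for any Slc gene, nor for any other of the 8750 features, at 1 h, 12 h or 72 h. At 12 h Slc22a12 had the smallest p, with a response of skin minus that of lung of -1.26 ± 0.35, and at 72 h Slc22a6 differed by -1.27. The median change of the 132 genes was -0.06, -0.08 and -0.09 in skin at 1 h, 12 h and 72 h, against -0.05, -0.03 and -0.01 over all features, and 0.00, 0.13 and 0.10 in lung, against -0.01, 0.07 and 0.05. No transport class had more than 4 genes at an unadjusted p under 0.05 in the same direction at any time and in either tissue. The count of 4 was that of the 7 sodium, potassium, calcium and chloride transporters, higher in lung at 72 h with a median change of 0.43. Of all features 6.72% were higher there at that p, with a median of 0.05. This class was picked for its count, which is not given here without the 4 lung arrays that stand apart.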

How the data were processed

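RNA of skin and lung was hybridised with a common reference on Agilent mouse cDNA arrays of 9275 probes. The deposited values are log10 ratios of Cy5 over Cy3, limited to ±2 and made with Agilent Feature Extraction per the submitters' processing notes, and the correction steps are not given in the sources used here. The sign of the lung arrays was turned by the dyes the labels give, values were converted to log2 and each array was centred on its median. Probes with the same symbol were averaged. The platform annotation gave 1 symbol for 6433 probes, several for 381 and none for 2461, and all 132 Slc symbols were current in RefSeq by gene ID. Transport classes follow the family number, so the class of amino acid carriers includes carriers of monoamines and creatine.

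Fits used limma 3.58.1 in R 4.3.3 with strain as a block and Benjamini-Hochberg adjustment over 8750 features. A group holds 3 arrays, 1 per strain, and this small number sets the precision. The spread within a group is therefore between strains, and no RNA pool was measured again. Fits of 1 tissue had 6 residual degrees of freedom and the fit of 24 arrays 14. Strain pairs the arrays by design. Deviations from group means correlated at -0.05 to 0.71 between arrays of the same strain and tissue. Genes were named by a rule on p, size, level, class and textbook role, and Slc6a12 at 12 h in lung and genes named to complete the count of a class lie outside it. The genes, lists and rules were chosen with earlier results of these data known. Alternatives varied centring, zeros, limit values, probe choice, the block, the arrays fitted and the set of the lung arrays. The interaction of strain and tissue and the fit without 4 lung arrays were added after the data were seen. The tests were checked on simulated data with independent noise and no set of arrays that stands apart. That check does not bear on calls that turn on the 4 lung arrays.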

Additional observations from a re-analysis of the deposited data

Results flagged for a closer look

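Strain differences of 2 genes differed between skin and lung in a contrast of 2 strains. By the F test of the interaction over 3 strains Slc13a4 passed (adjusted p = 0.00883, 0.594% of all features called) and Slc15a2 did not (adjusted p = 0.0557). For Slc15a2, the peptide transporter, C57BL/6J minus A/J was 1.45 in skin and -0.67 in lung, and the difference between the tissues was 2.12 (limma adjusted p = 0.0412). The C57BL/6J skin array at 12 h, at -1.47, lay apart from the other 3 of that strain, at 0.05 to 0.66, and the same array stood apart in marker genes of fat cells, B cells and macrophages, among them Fabp4 (4.90, against 2.41 to 2.73) and Cd79a (-0.03, against -3.35 to -2.72). The part of these cells in the Slc15a2 value was not tested. Without that array the difference between the tissues was 2.60 (adjusted p = 9.54e-04). For Slc13a4, the sulphate transporter, C3H/HeMs minus C57BL/6J was -0.53 in skin and 1.31 in lung, and the difference between the tissues was -1.84 (adjusted p = 0.00533). Both calls were lost without the 4 lung arrays that stand apart, and what sets those arrays apart was not tested. A check for a single array far from the other 3 of its strain and tissue, made for the 8 genes per tissue with the smallest F test p (48 sets of 4 arrays), found none. A small spread within strains helped to choose those genes, so this says nothing of other genes.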

How the results depend on the processing

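With 3 arrays per group and no measure of background in the deposited ratios, values near the limit of the ratio have only a bound. In skin against lung the total stayed within 1.5 times of 68 under every setting run, from 51 to 67 genes with an array or strain left out and 65 without the strain block, and no named gene turned round. Its split of 57 higher and 11 lower moved to 47 and 19 without centring and to 70 and 27 with the mean of the 4 groups of each tissue. Without centring the median difference was 0.339 for the Slc genes and 0.063 for all features. The shares of all features called under these settings are not given here. No alternative called an Slc gene after irradiation or in the response of skin minus that of lung, with or without the block. In the lung strain comparison 4 genes were called, 2 with the set of lung arrays as a block, 0 with control and 1 h arrays only, 0 without the 4 arrays that stand apart, and 0 to 3 with an array or strain left out. Over all features the counts were 258, 91 with the set as a block 10 without the 4 arrays and 0 without the C57BL/6J arrays. In skin 1 gene was called (0.758%, against 0.377% of all features), and 0 with control and 1 h arrays only. With an array or strain left out 0 to 7 were called, the 7 without the C3H/HeMs array at 12 h. The share of all features in those skin runs is not given here, so the 7 are not a result about the Slc genes. The interaction of strain and tissue called 1 gene (0.758% of the Slc genes, against 0.594% of all features). It called 2 without centring, 2 after quantile normalization, 0 with the set as a block and 0 without the 4 arrays. With an array left out it called 1 to 3, where the 3 came without the C57BL/6J skin array at 12 h. Counts over all features under these alternatives are not given here. For single genes, 1321 fits with an alternative kept direction and side of the threshold, 157 kept the direction only and none turned round. These counts include genes named after irradiation, which no run called, so their side of the threshold never changed. Lung strain calls were lost in 2 of 21 alternatives (Slc13a4, C3H/HeMs minus C57BL/6J) to 20 of 21 (Slc25a16, C57BL/6J minus A/J). Calls of named genes between the tissues were lost in 0 (Slc22a4) to 10 (Slc1a2) of 18. The cause was not tested.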

Other observations

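Other transport genes on the array, listed beside the Slc genes, gave these counts between control skin and control lung, where 35.6% of all features were higher and 22.5% lower in skin. Of 26 ABC transporters, which pump lipids and drugs with ATP, 6 were higher and 3 lower in skin, with a median difference of -0.01. Of 4 sodium pump subunits 2 were higher, with a median of 1.19. Of 7 carbonic anhydrases, which make bicarbonate, 2 were higher and 2 lower, and of 4 aquaporins, the water channels, 1 was lower. None of these genes passed the test after irradiation.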
